A study of Rattus norvegicus with 20 samples.

Results

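Genes whose normalised read counts were lower 24 hours after preconditioning in both the dorsal and the ventral subiculum of the rat were examined. The table held 32883 gene IDs, of which 21 met the rule. A member had a mean of at least 1 CPM (reads of the gene per 1000000 counts of the library) over the 20 libraries. In each region its highest preconditioned library lay below its lowest control library. These CPM values chose the members, so the decreases are given below as a description, and no test of them is used as support. Poly(A) RNA of Wistar wild-type rats aged 3 months was sequenced in 4 groups of 5 libraries, which were dorsal control, dorsal preconditioning, ventral control and ventral preconditioning. Preconditioning names acute seizures evoked by electric stimulation of the perforant pathway, and the tissue was cut out of brain sections by laser. What the control animals underwent, and whether a dorsal and a ventral library with the same number came from the same animal, is not given in the sources used here.

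The subiculum is the main output station of the hippocampus, and its pyramidal neurons pass hippocampal activity on to cortical and subcortical targets. The perforant pathway carries input from the entorhinal cortex to the hippocampal formation, and its prolonged stimulation is a standard way to evoke limbic seizures in rodents. In epilepsy research, preconditioning is a brief seizure episode given ahead of a later, more damaging one. The dorsal subiculum is known for links with spatial processing, and the ventral part for links with stress and emotion. Transcripts that are lower a day after seizures can include those of ion channels, receptors and metabolic enzymes. None of the 21 members could be assigned to such a class, because neither the table nor the reference paired the IDs with gene names. Members are therefore numbered 1 to 21, from the largest to the smallest mean fitted decrease over both regions for the 20 members fitted in both. Member 21 is placed last, whatever its decrease, because it was not tested in the ventral region. The IDs of 7 members are given.

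Library totals ranged from 3087146 to 20463678 counts. On principal components of log2 CPM over all genes, 3 libraries stood apart from their groups. Dorsal control 4 lay at 60.1 on the fourth component, with the rest of its group from -13.7 to -4.3. On the second component the score of ventral control 2 was 43.2, and those of its group otherwise 7.47 to 17.4. Dorsal preconditioning 2 lay at -35.3 on the fifth, with the rest of its group from 0.295 to 8.06. Ventral preconditioning 2 and 5, not among these 3, lay together away from the rest of their group. They scored 0.45 and 2.13 on the second component, where the rest scored -36.3 to -23. On the third they scored -31.5 and -24.3, and the rest -11.7 to -0.233. The labelled tissue was not checked against marker genes, since no ID had a name. In tissue RNA of this kind, fewer cells of a type and less RNA per cell cannot be told apart.

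The rule was met by few genes, and the dorsal list was the shorter one. Of 13428 genes with a mean of at least 1 CPM, 76 (0.566%) were lower without overlap in the dorsal region and 469 (3.49%) in the ventral region. The 21 members (0.156%) made up 27.6% of the dorsal list and 4.48% of the ventral list. By the mirrored rule, 89 genes were higher in both regions. With TMM-adjusted library sizes, which correct the totals for a few very abundant genes, 32 genes were lower and 74 higher in both regions, so that the lower genes made up 30.2% in place of 19.1%. Of the 21 members, 17 also met the rule on that scale, and members 5, 7, 19 and 20 did not. On column sums the median log2 change over genes was 0.05 in the dorsal and -0.04 in the ventral region. With TMM it was -0.00 and -0.01. The part of this shift in the lengths of the dorsal and ventral lists was not tested.

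The margin between the groups was narrow in the dorsal region. There the highest preconditioned library lay below the lowest control by a median of 3.54% of that control (range 0.509% to 27.1%), and by under 5% for 13 members. In the ventral region the median margin was 14.5% (range 0.464% to 45%), and 4 members had under 5%. Both margins are on column sums, with the opposite shifts of the regions given above. They were not measured with TMM. Just inside the rule, member 5 had a lowest ventral control of 16.2 CPM and a highest ventral preconditioned library of 16.12 CPM, and member 2 had 6.536 and 6.503 CPM in the dorsal region. Just outside it, the closest gene had 509.4 CPM in its lowest dorsal control and 509.5 CPM in its highest dorsal preconditioned library. The next had 102.6 and 102.7 CPM in the ventral region.

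Single libraries moved the number of genes that met the rule, because each library left out relaxes it. Without dorsal preconditioning 2, 39 genes met it, and without dorsal control 1 or dorsal preconditioning 1, 32 did. Leaving out any other library gave 21 to 31 genes, and leaving out ventral control 4 added none. Without the 3 libraries that stood apart, 76 genes met it. The 21 members were included each time. Dorsal preconditioning 2 was the highest preconditioned dorsal library for 7 members, and dorsal control 1 the lowest dorsal control for 8. Among the ventral controls, ventral control 2 was the lowest for 10 members.

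**Figure D1:**
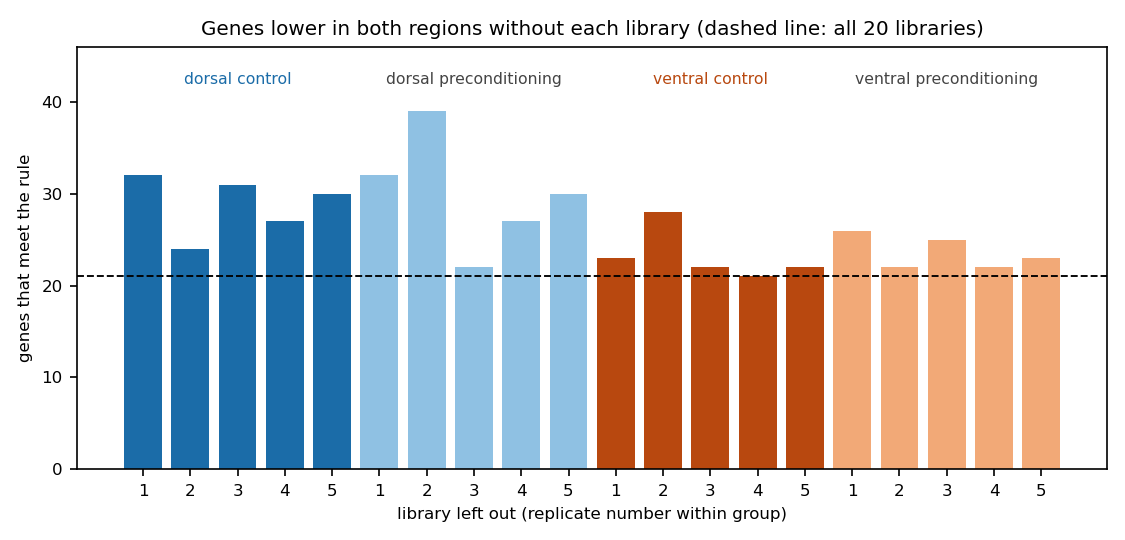
Number of genes that met the rule (y axis) with each of the 20 libraries left out in turn (x axis, replicate number within group, bars coloured by group). The dashed line marks the 21 members found with all libraries, and the highest bar is the 39 genes found without dorsal preconditioning 2.

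The members spanned most of the range of expression. Their mean over all libraries ran from 2.25 CPM for member 7 to 563.2 CPM for member 12, with a median of 53.9 CPM, against 24.6 CPM for all genes with a mean of at least 1 CPM. Under 10 CPM there were 5 members, between 10 and 100 CPM 10, and above 100 CPM 6. Summed over the 21 members, the level was 2387 ± 200.5 CPM (SD, n = 5) in dorsal controls and 1710 ± 126.1 CPM after dorsal preconditioning. In the ventral region it was 2364 ± 133.6 CPM in controls and 1568 ± 70 CPM after preconditioning. The summed levels of the regions thus lay close together in controls, while single members differed between regions by up to 19.3-fold.

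**Figure D2:**
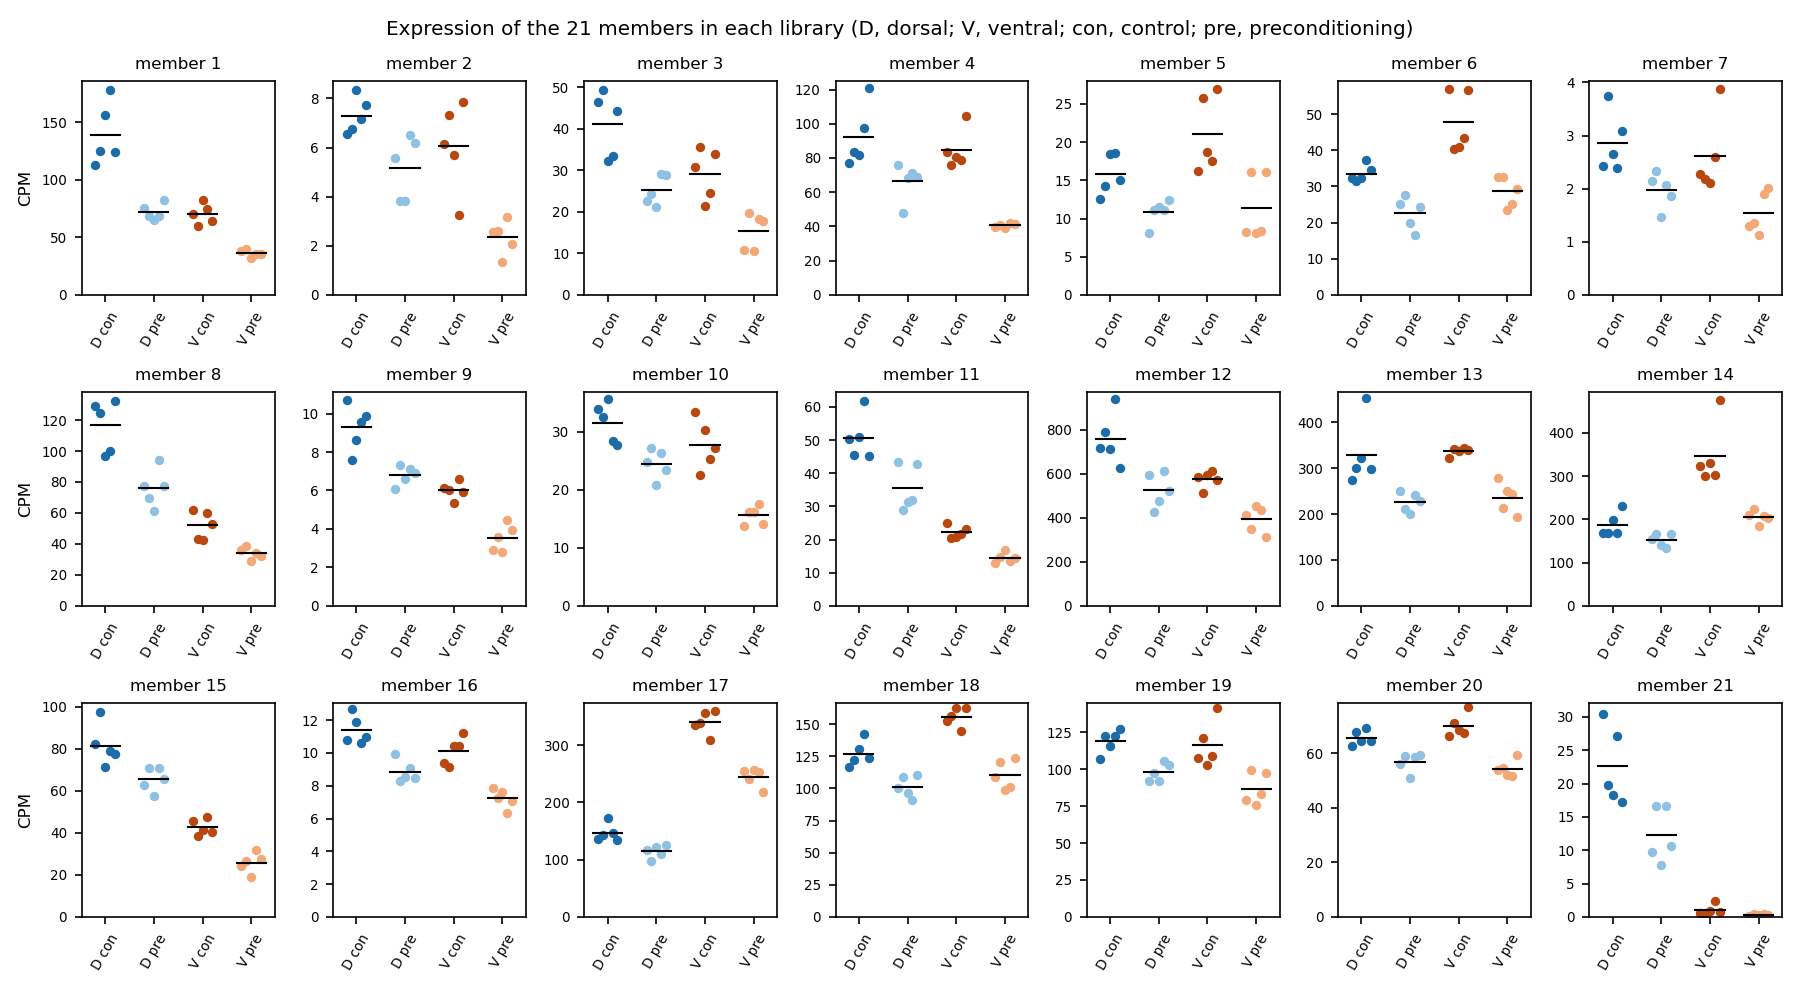
CPM of each member (1 panel each, linear y axis from 0) in the 5 libraries of each group (points, replicates 1 to 5 from left to right) with the group mean (line). Within each region every preconditioned point lies below every control point, as the rule requires, and members 14 and 17 are higher in the ventral region where members 1, 8, 11, 15 and 21 are lower.

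Among the 20 members fitted in both regions, ENSRNOG00000005034, member 1, had the largest mean fitted decrease. Its dorsal controls measured 112.8, 125.1, 156.3, 178.2 and 123.8 CPM, and the dorsal preconditioned libraries 75.1, 68.5, 64.9, 68.7 and 82.2 CPM. The ventral controls measured 70.6, 59.7, 82.9, 74.6 and 63.8 CPM, and the ventral preconditioned libraries 38, 39.5, 32.3, 35.3 and 35.9 CPM. The preconditioned level was thus 51.6% of control in the dorsal and 51.4% in the ventral region, and the dorsal preconditioned libraries overlapped the ventral controls in level. The log2 fold change was -1.01 (SE 0.13) in the dorsal and -0.92 (SE 0.10) in the ventral region. It had the widest dorsal margin of the 21 members, 27.1%.

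ENSRNOG00000032895, member 2, was weakly expressed and came next in that order. Its dorsal controls measured 6.54, 6.74, 8.34, 7.15 and 7.72 CPM, and the dorsal preconditioned libraries 5.56, 3.84, 3.82, 6.5 and 6.19 CPM. The ventral controls measured 6.15, 7.34, 5.69, 3.27 and 7.85 CPM, and the ventral preconditioned libraries 2.58, 2.59, 1.34, 3.17 and 2.07 CPM. Ventral control 4 was the low control, close to the highest preconditioned library. These values rest on 12 to 129 counts per library. The log2 fold change was -0.54 (SE 0.20) in the dorsal and -1.33 (SE 0.28) in the ventral region, and the ventral estimate ranged from -1.52 to -0.89 over the alternative fits.

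Over all members the decreases were moderate. The preconditioned mean was between 51.6% and 86.4% of the dorsal control mean, with a median of 71%. In the ventral region it was between 27.2% and 77.5%, with a median of 60%. The median log2 fold change, from edgeR fitted to all genes, was -0.54 over 21 members in the dorsal region and -0.69 over the 20 members tested in the ventral region, where the median of all genes tested was -0.01 in each. A fitted decrease of at least 2-fold was seen for 1 member in the dorsal and 2 members in the ventral region. Member 4 was the second of these, with 92.1 ± 17.6 CPM in dorsal controls and 66.5 ± 10.9 CPM after dorsal preconditioning (SD, n = 5 each). In the ventral region it went from 84.7 ± 11.3 to 40.6 ± 1.18 CPM. Its 5 ventral preconditioned libraries lay between 39.1 and 41.8 CPM, and its ventral margin of 45% was the widest of all members.

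The smallest mean decrease of the 20 was that of member 20. It measured 65.6 ± 2.66 CPM in dorsal controls and 56.7 ± 3.5 CPM after preconditioning, and 70.1 ± 4.18 and 54.3 ± 3.12 CPM in the ventral region. The most abundant member, number 12, measured 756.9 ± 117.0 CPM in dorsal controls against 527.6 ± 77.9 CPM after preconditioning, and 574.9 ± 38.7 against 393.3 ± 59.2 CPM in the ventral libraries. The least abundant, number 7, measured 2.86 ± 0.565 against 1.98 ± 0.33 CPM and 2.61 ± 0.733 against 1.54 ± 0.399 CPM.

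The comparison across all genes called few of these decreases in the dorsal region. At an adjusted p-value under 0.05 in edgeR's quasi-likelihood test, 1 of 21 members was called lower there, where 0.0586% of all genes tested were. In the ventral region 15 of 20 were called lower, where 2.12% of all genes tested were. Since the rule used both comparisons, nothing is read from these shares. The dorsal count depended on the test. DESeq2 called 13 members lower, where it called 0.513% of all genes lower, and limma-voom with sample quality weights called 8, where it called 0.469%. With edgeR it was 3 without dorsal control 3 or dorsal control 4 and 2 without dorsal preconditioning 4. Those fits called 39 of 13734, 47 of 13771 and 37 of 13722 genes in either direction.

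**Figure D3:**
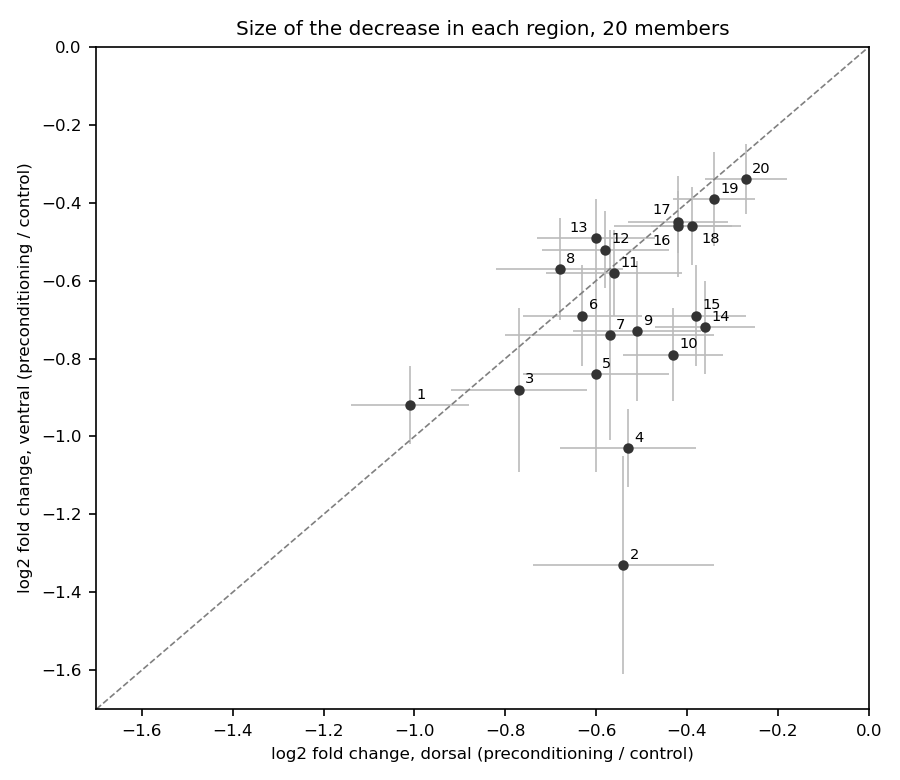
Log2 fold change after preconditioning in the dorsal (x axis) and ventral (y axis) region for the 20 members tested in both, numbered by mean decrease, with bars of 1 standard error and a dashed line of equal change. Most points lie below the line, where the ventral estimate is the larger decrease, with member 2 at -1.33 and member 4 at -1.03 farthest down.

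The rule set no condition on one region against the other, so the regional level of the members was tested separately, first in controls. There 11 of 21 members (52.4%) differed between the ventral and the dorsal subiculum by edgeR's quasi-likelihood test at an adjusted p-value under 0.05. The ventral level was higher for 3 of them and lower for 8. Of all genes tested, 25.7% differed, 11.2% higher and 14.5% lower. The median log2 difference, ventral over dorsal, was -0.22 over the members and 0.02 over all genes, and the median size regardless of sign was 0.44 and 0.28. The group ranges did not overlap for 4 members that were higher (9.84% of all genes) and 7 that were lower in the ventral region (9.31% of all genes). A rule of non-overlapping ranges favours genes with little spread in these same libraries. The median coefficient of variation was 13.4% over the members and 18.5% over all genes with a mean of at least 1 CPM in dorsal controls, and 13.3% and 17% in ventral controls. The part of this spread, and of the members' higher median abundance, in the share called was not tested. With the replicate number as a block, which pairs dorsal and ventral controls of the same number, 11 members were again called, all of them among the first 11. The block raised the number of all genes called from 3472 to 4917 of 13509, so the members' share stayed while that of all genes rose.

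The members highest in the ventral region were ENSRNOG00000010320 and ENSRNOG00000020185, chosen by the smallest p-values. ENSRNOG00000010320, member 17, measured 136.6, 142.5, 172.8, 147.2 and 134.1 CPM in dorsal and 335.6, 338.8, 356.9, 309.5 and 359.7 CPM in ventral controls. Every ventral control lay well above every dorsal one, with a log2 difference of 1.16 (SE 0.10, edgeR adjusted p = 1.91e-06). After preconditioning it measured 116.7, 97.4, 122.7, 109.6 and 124.9 CPM in the dorsal and 255.2, 241.0, 256.1, 252.3 and 217.4 CPM in the ventral region. Its ventral preconditioned libraries thus stayed above all dorsal controls, which was the case for no other member.

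ENSRNOG00000020185, member 14, measured 169.2, 169.0, 198.5, 168.1 and 232.0 CPM in dorsal controls and 323.6, 300.2, 330.7, 302.7 and 476.5 CPM in ventral controls. Ventral control 5 stood above the rest of its group, and the groups did not overlap. The log2 difference was 0.83 (SE 0.14, edgeR adjusted p = 4.60e-04), and without ventral control 5 it was 0.70 (adjusted p = 9.24e-04). After preconditioning the dorsal libraries measured 154.3, 166.9, 140.1, 134.2 and 166.6 CPM and the ventral ones 209.5, 224.8, 184.4, 208.5 and 203.0 CPM. They still did not overlap, with a log2 difference of 0.47 (SE 0.09, adjusted p = 0.00186).

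Among the members lower in the ventral region, ENSRNOG00000055103, member 21, was close to absent there. Its dorsal controls measured 30.5, 19.8, 18.3, 27.2 and 17.3 CPM and its ventral controls 0.648, 0.477, 0.813, 2.39 and 0.794 CPM, the latter from 2 to 49 counts. Ventral control 4 was the high one. The log2 difference was -4.27 (SE 0.35, edgeR adjusted p = 1.26e-06), or 19.3-fold, and -5.08 (adjusted p = 2.09e-07) without ventral control 4. After preconditioning the dorsal libraries measured 9.69, 16.6, 7.78, 16.6 and 10.7 CPM. The ventral ones measured 0.108, 0.37, 0.224, 0.381 and 0.311 CPM from 1 to 6 counts, so the ventral decrease of this member rests on few reads, and it did not pass the filter on low counts in that comparison. It is the only member with a group mean under 1 CPM.

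ENSRNOG00000001726, member 11, was lower in the ventral controls without overlap. Dorsal controls measured 50.2, 45.4, 50.9, 61.9 and 45.1 CPM and ventral controls 24.9, 20.6, 20.8, 21.7 and 23.1 CPM. The log2 difference was -1.25 (SE 0.12, edgeR adjusted p = 4.12e-06). Preconditioned libraries measured 43.5, 28.8, 31.3, 31.9 and 42.8 CPM in the dorsal and 12.8, 14.7, 16.9, 13.6 and 14.3 CPM in the ventral region. The 4 groups therefore took separate levels in the order dorsal control, dorsal preconditioning, ventral control and ventral preconditioning.

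The regional comparison after preconditioning gave a similar division. There 13 of 21 members (61.9%) differed by edgeR's test, 2 higher and 11 lower in the ventral region, where 26.7% of all genes tested differed, 12% higher and 14.7% lower. The median log2 difference was -0.40 over the members and 0.02 over all genes. The members had the smaller spread here too. The median coefficient of variation was 10.3% over the members and 14.6% over all genes with a mean of at least 1 CPM in dorsal preconditioned libraries. In ventral ones it was 12.3% and 16.6%. The part of this spread, and of abundance, in the share called was not tested. Group ranges did not overlap for 2 members that were higher (7.34% of all genes) and 11 that were lower (11.9% of all genes). These 11 were not the same as the 11 called lower. Member 12 was called (edgeR adjusted p = 0.0273) though its ranges overlapped. Member 16 was not called (adjusted p = 0.169), though its ventral libraries lay below all dorsal ones. Of the members called in controls, 10 were called again. The share of all genes called in both conditions was not computed. Member 6 was called in controls alone, and members 2, 4 and 10 after preconditioning alone. For these 4 the change between the conditions is addressed by the interaction below. Members 5, 7, 13, 16, 18, 19 and 20 were called in neither condition.

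ENSRNOG00000049410, member 15, was among the 2 members with the smallest p-values for a lower ventral level after preconditioning, next to member 21. It measured 62.7, 70.8, 57.4, 70.7 and 65.8 CPM in dorsal and 24.3, 26.7, 18.8, 32 and 27.6 CPM in ventral preconditioned libraries. The log2 difference was -1.31 (SE 0.13, edgeR adjusted p = 4.48e-06). In controls it measured 82.2, 97.7, 71.2, 79.1 and 77.8 CPM in the dorsal region. Ventral controls measured 45.7, 38.3, 41.4, 47.5 and 40.4 CPM, a log2 difference of -0.99 (SE 0.11, adjusted p = 2.48e-05). In neither condition did the regions overlap.

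Of the other members called between the regions, member 1 was lower in the ventral controls by a log2 difference of -1.04 (SE 0.13, edgeR adjusted p = 5.48e-05). The controls of member 8 averaged 116.6 ± 16.9 CPM dorsally and 52.1 ± 9.21 CPM ventrally (SD, n = 5 each), and 76.1 ± 12.3 and 34.1 ± 3.84 CPM after preconditioning. Its log2 difference was -1.23 in controls and -1.13 after preconditioning. Members 3, 9 and 12 were also lower in the ventral region in both conditions, with log2 differences from -0.68 to -0.45 in controls and from -0.91 to -0.40 after preconditioning. The dorsal and ventral controls of member 3 overlapped, at 32.2 to 49.4 and 21.3 to 35.5 CPM. Members 2, 4 and 10, called after preconditioning alone, were then lower in the ventral region by log2 differences of -1.13 (SE 0.25), -0.69 (SE 0.12) and -0.63 (SE 0.11). In controls their log2 differences were -0.33, -0.18 and -0.26. Member 6 was higher in ventral controls by a log2 difference of 0.44 (edgeR adjusted p = 0.0136) and by 0.37 after preconditioning (adjusted p = 0.0775). Member 18 had ventral controls above all dorsal controls, yet with a log2 difference of 0.24 it missed the threshold (adjusted p = 0.0729).

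**Figure D4:**
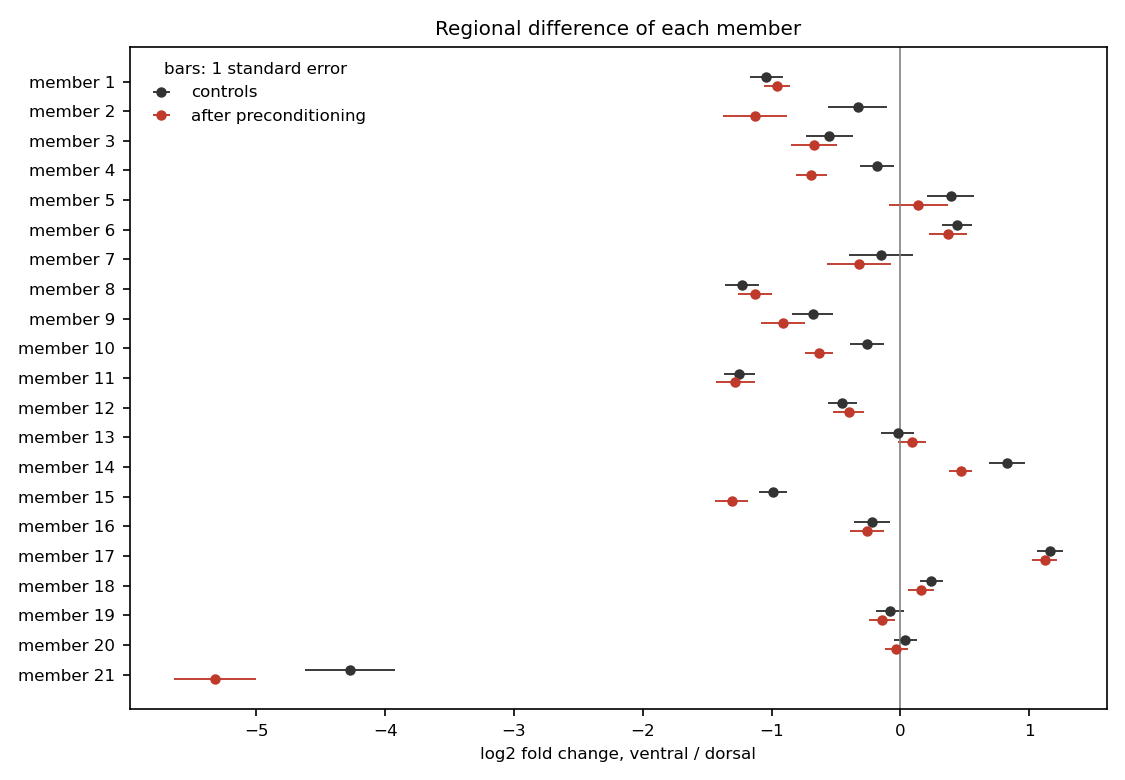
Log2 fold change of the ventral over the dorsal region for each member in controls (dark) and after preconditioning (red), with bars of 1 standard error. Members 14 and 17 lie to the right of 0 and members 1, 8, 9, 11, 15 and 21 well to the left in both conditions, with member 21 at -4.27 and -5.32.

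For some members the regional difference exceeded the decrease after preconditioning. In controls it was larger than the dorsal decrease for 8 of 21 members, and larger than both decreases for 6 of the 20 tested in both regions. The dorsal preconditioned libraries lay entirely above the ventral controls for 3 members (12% of all genes), entirely below them for 7 (8.47% of all genes), and overlapped them for 11. The rule asked for low preconditioned and high control values, which favours a place below. Nothing is therefore read from these counts against the shares of all genes. By the rule, the lowest of the 4 group means can only be a preconditioned one and the highest only a control one. The lowest was that of ventral preconditioning for 15 members. The highest was that of dorsal controls for 14 members and of ventral controls for the other 7. Which region held them was not set by the rule, and it was not counted over all genes. The direction of the regional difference was the same in both conditions for 19 members. The others, members 13 and 20, had log2 differences between -0.03 and 0.09. How many of all genes kept their direction was not counted, so this is not read as a trait of the members.

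Whether the decrease differed between the regions was tested as the interaction of region and treatment over all 20 libraries. No member reached an adjusted p-value under 0.05 by edgeR, where 0.0781% of all genes tested passed, and the lowest adjusted p-value of a member was 0.547. DESeq2 and limma-voom also called 0 members, where they called 55 and 100 of 14087 genes. Before adjustment, 4 of 21 members and 6.73% of all genes had a p-value under 0.05. These were members 2, 4, 10 and 14, each with the larger fitted decrease in the ventral region. The log2 difference, ventral response minus dorsal response, was -0.80 (SE 0.34) for member 2, -0.51 (SE 0.18) for member 4, -0.37 (SE 0.16) for member 10 and -0.37 (SE 0.17) for member 14. It was negative for 17 of 21 members, with a median of -0.08, and for 50.6% of all genes tested. The rule asked for a decrease in both regions and so constrained these values. The median standard error was 0.17 on the log2 scale, and a p-value that misses the threshold does not show that the decreases were equal.

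Member 10, with an interaction adjusted p-value of 0.695 by edgeR, had dorsal controls that measured 31.6 ± 3.5 CPM and dorsal preconditioned libraries that measured 24.5 ± 2.52 CPM (SD, n = 5 each), while the ventral libraries went from 27.8 ± 4.24 to 15.6 ± 1.64 CPM. The regions overlapped in controls and not after preconditioning. Member 13 was at the other end, with 329.1 ± 70.7 and 226.0 ± 21 CPM in the dorsal and 336.6 ± 8.32 and 236.0 ± 32.6 CPM in the ventral region. Its interaction was 0.11 (SE 0.17), the most positive of the 21.

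How far the members varied together within groups was described by correlation. For each pair of members, the deviations of log2 CPM from the group mean were correlated over the 20 libraries. The median r over 210 pairs was 0.11, the range was -0.72 to 0.81, and 143 pairs were positive. The pair most alike was members 5 and 19. Libraries with the same number may share an animal, and all members of a library share its depth and scaling, so these values are a description. Pairs of other genes were not correlated, so whether the members varied together more or less than other genes was not tested. Averaged over the members, dorsal preconditioning 3 and ventral preconditioning 3 lay lowest in their groups, each at -0.15 on the log2 scale, and ventral control 5 lay highest at 0.14. Dorsal preconditioning 3 was the lowest library of its group for 11 members and ventral preconditioning 3 for 13. Ventral control 5 was the highest of its group for 10 members and the lowest for none.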

How the data were processed

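The authors deposited 1 table of raw counts per gene in which each library has a column of whole numbers, without normalization. STAR, DESeq2 and the genome build Rnor_5.0 are named in the submitters' processing notes, while the counting tool, the annotation and the strand setting are not given in the sources used here. How reads of near-identical or overlapping genes were assigned is thus unknown. Groups and replicate numbers came from the sample titles. Columns of preconditioned libraries carry the letter e and the titles p, and they were matched by number and region letter.

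CPM values used the column sums. Tests across all genes used edgeR 4.0.16 under R 4.3.3 (filterByExpr, TMM, glmQLFit with robust=TRUE, glmQLFTest, Benjamini-Hochberg over all genes tested). A comparison of 2 groups was fitted to their 10 libraries and the interaction to all 20. A fold change is relative to the first-named group, and its SE was derived from the F statistic. With 200 genes changed 2-fold in simulated counts, the test recovered 73% of those tested between the regions in controls, 78.1% after preconditioning and 51% for the interaction. The members' median log2 sizes in these comparisons were below 2-fold, at 0.44, 0.63 and 0.11. Recovery of changes that small was not simulated.

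Same-numbered dorsal and ventral controls deviated from their group means together (r across genes 0.2 to 0.393 over 5 pairs), so their numbers were taken to pair them. The main regional and interaction fits nevertheless treated the libraries as independent. The pairing entered only through the replicate block, run as an alternative. After preconditioning, r between the regions was 0.0376 to 0.368 (mean 0.197), against a mean of 0.316 in controls. The same number gave the highest r for 4 of 5 pairs after preconditioning and for 5 of 5 in controls. In the dorsal treatment comparison it did so for 0 of 5 pairs (lowest r -0.222). In the ventral one it did so for 2 of 5 (lowest r -0.0135). Neither the preconditioned regions nor the treatment comparisons were taken as paired. These correlations cannot settle whether same-numbered libraries share an animal. The replicate block nevertheless paired same-numbered preconditioned libraries in the regional fit after preconditioning and in the interaction. P-values measure the spread between these libraries, since the labels do not say that each came from a separate animal. With 3087146 to 20463678 counts per library, no member had fewer than 10 counts in any library except members 7 and 21.

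The rule left out 1 gene, which is not reported here. The members and lists were chosen with earlier results of these data known. IDs named were the 2 members with the largest mean fitted decrease among those fitted in both regions and, for each direction of each regional comparison, the 2 called members with the smallest p-values. Of 47357 genes in a GRCr8 reference table, 0 matched the IDs, so marker and pathway lists and sequences were not used here. Alternatives were DESeq2 1.42.0, limma-voom 3.58.1 with quality weights, DESeq2 size factors, no filter, the replicate block, all 20 libraries in 1 fit, other CPM scalings and minimums, and each library left out. Leaving out 3 libraries together was chosen after seeing the data.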

Additional observations from a re-analysis of the deposited data

Results flagged for a closer look

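For the 7 members given by ID and the summed level of all members, each group of 5 libraries was searched for a library far from the others by Dixon's ratio. Among 32 groups, 2 had one, and chance alone gives about 1.6. ENSRNOG00000020185 measured 476.5 CPM in ventral control 5, while its group otherwise spanned 300.2 to 330.7 CPM. ENSRNOG00000055103 measured 2.39 CPM in ventral control 4, while its group otherwise spanned 0.477 to 0.813 CPM. The source of these values was not tested.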

How the results depend on the processing

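The number of genes that met the rule, 21, was 32 with TMM-adjusted library sizes, 33 with DESeq2 size factors, and 76 without the 3 libraries that stood apart. With each library left out it was 21 to 39. A minimum mean of 0.5 or 5 CPM gave 22 and 20. The dorsal treatment count, 1 member, was 13 with DESeq2, 8 with limma-voom and quality weights, 4 without a filter, 7 with all 20 libraries in 1 fit, 4 without the 3 libraries, and 1 to 3 with each library left out. The number of all genes called there, in either direction, moved as well. It was 37 of 13647 in the main fit, 169 with DESeq2 and 172 with limma-voom. It was 55 of 20612 without a filter, 97 of 14087 in 1 fit and 105 of 13713 without the 3 libraries. With each library left out it was 15 to 50. The ventral count, 15, stayed between 12 and 20, the regional counts, 11 and 13, between 10 and 14 and between 12 and 14, and the interaction count at 0, over the alternatives run. Over all genes these alternatives called 432 to 1508 in the ventral comparison and 6 to 100 for the interaction. Between the regions they called 2736 to 5086 genes in controls and 2917 to 4511 after preconditioning. In no alternative did a member given by ID change direction where it was called. With limma-voom, ENSRNOG00000032895 missed the threshold in the ventral treatment comparison (log2 fold change -0.89) and passed it between regions in controls (-0.66, adjusted p = 0.0409, and 0.329 with edgeR). The cause was not tested. With the replicate block the counts were 1 for dorsal treatment, 18 for ventral treatment, 11 and 14 between the regions and 0 for the interaction. Apart from the control regions, the numbers were not taken to pair the libraries. Over all genes the block moved the dorsal treatment count from 37 to 26, the ventral one from 672 to 1261 and the interaction from 11 to 62. It moved the regional counts over all genes from 3472 to 4917 in controls and from 3647 to 4190 after preconditioning. Depth limits members 7 and 21 most, which had as few as 7 and 1 counts in a library.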
